A study of Caenorhabditis elegans with 2 samples.

Results

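The heterochronic timing genes described here are 8 genes of Caenorhabditis elegans, chosen by name among 19973 annotated protein-coding genes: lin-14, lin-28, hbl-1, lin-46, lin-41, lin-29, lin-42 and daf-12. For each of them, every deposited binding region of the transcription factor EGL-13 was taken whose summit lay between 2000 bp upstream of the gene and its annotated end. EGL-13 belongs to the SoxD group of HMG-box transcription factors and is known for roles in the fate of gas-sensing neurons and of uterine cells. The study was a chromatin immunoprecipitation followed by sequencing (ChIP-seq) of hermaphrodite L1 larvae of strain GOU883, which stably express EGL-13 with a GFP-FLAG tag at its C-terminus. The worms were synchronized by starvation after bleaching and collected 6 h later, chromatin was sonicated, and the tagged protein was recovered with an antibody to GFP. Biological replicates 3 and 4 form 1 group, so no conditions are contrasted. Whole animals were used, so the cells in which a region was bound are unknown, and binding is not a measure of expression.

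Heterochronic genes set which larval stage a cell behaves as. Early-acting factors such as LIN-14 and LIN-28 hold cells in early larval programmes until microRNAs of the lin-4 and let-7 families repress them, and late-acting factors such as LIN-29 then start the switch to adult fates in the skin. The nuclear receptor DAF-12 and the period-related protein LIN-42 tie this sequence to hormone state and to the molting rhythm. Loss or gain of one such gene makes cells skip or repeat a larval stage.

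An optimal region was found at 6 of the 8 genes, against 12% (2398) of all protein-coding genes with the same kind of window. The optimal list is the set of 2294 regions that the authors kept after a threshold on how well ranked lists reproduce each other. In all, 11 optimal regions lay in the windows: 5 at lin-14, 2 at lin-42 and 1 each at lin-28, lin-46, lin-41 and daf-12. The windows of lin-29 and hbl-1 held none. Having 2 or more such regions applied to 2 of the 8 genes and to 1.42% of all protein-coding genes. These 2, lin-14 and lin-42, are of 10000 bp or more, and the 1.42% was not computed by length. Long genes have long windows: these 8 genes had a median length of 12699.5 bp, against 2027 bp for all protein-coding genes. Among genes of 10000 bp or more, 3 of 4 timing genes had an optimal region, against 28.4% of all such genes. Among shorter genes it was 3 of 4, against 11.1% of all. Since the genes were picked by name with results of these data known, these shares describe the list and no test was made of it.

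The sequences below are the bases around region summits, and which of them EGL-13 bound was not tested. The summit base with 50 bases on each side is given for the 8 optimal regions of lin-14, lin-42 and daf-12, each named by the distance in bp of its summit from the 5′ end of the gene, with negative distances upstream. All are the + strand of ce11, read 5′ to 3′ from the RefSeq sequence of that build. lin-42 runs on the − strand. Capitals mark matches on either strand to 4 sequences: AACAAT, the core known for SOX HMG boxes, GAGAGA and GACGCA, which were frequent at EGL-13 summits in earlier results of these data, and TCACATGC, found here by comparing the lin-14 regions.
lin-14 -165, chrX:11465345-11465445: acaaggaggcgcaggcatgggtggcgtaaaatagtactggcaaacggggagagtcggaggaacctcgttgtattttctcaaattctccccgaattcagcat
lin-14 +1848, chrX:11467358-11467458: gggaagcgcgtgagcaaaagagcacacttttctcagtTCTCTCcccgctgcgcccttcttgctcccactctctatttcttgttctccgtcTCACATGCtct
lin-14 +6586, chrX:11472096-11472196: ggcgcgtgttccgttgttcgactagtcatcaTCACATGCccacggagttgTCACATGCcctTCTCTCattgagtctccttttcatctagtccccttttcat
lin-14 +7875, chrX:11473385-11473485: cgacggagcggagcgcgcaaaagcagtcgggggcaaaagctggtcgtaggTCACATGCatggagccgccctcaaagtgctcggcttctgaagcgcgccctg
lin-14 +11483, chrX:11476993-11477093: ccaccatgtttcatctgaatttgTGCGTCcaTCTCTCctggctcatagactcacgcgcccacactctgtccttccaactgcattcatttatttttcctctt
lin-42 +5342, chrII:1246967-1247067: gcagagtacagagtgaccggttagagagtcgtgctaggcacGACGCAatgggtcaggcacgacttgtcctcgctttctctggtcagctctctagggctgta
lin-42 +14292, chrII:1238017-1238117: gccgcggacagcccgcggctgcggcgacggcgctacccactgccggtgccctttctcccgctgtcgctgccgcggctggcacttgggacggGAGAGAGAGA
daf-12 +1713, chrX:10637571-10637671: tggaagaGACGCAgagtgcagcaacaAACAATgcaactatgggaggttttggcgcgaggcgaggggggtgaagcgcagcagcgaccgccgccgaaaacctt

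AACAAT lay within 50 bp of the summit at 1 of the 11 optimal regions, that of daf-12, where it began 24 bp before the summit. It was present at 6.15% of all optimal regions. GAGAGA lay at 4 of the 11 regions, the lin-14 regions at +1848, +6586 and +11483 and the lin-42 region at +14292, against 25.4% of all optimal regions. GACGCA lay at 4 of the 11 regions, against 15.3% of all: lin-14 at +11483, lin-42 at +5342, lin-46 and daf-12. The lin-14 copies of GAGAGA and GACGCA read as their reverse complements, TCTCTC and TGCGTC, on the + strand. The lin-42 region at +14292 holds a run in which GAGAGA matches 3 times with overlap.

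TCACATGC was the longest sequence shared by at least 3 of the 5 lin-14 windows, and it was chosen after the sequences were compared. It occurred once in the regions at +1848 and +7875 and in 2 copies in the region at +6586, always in the direction of lin-14 transcription. The other 8 optimal regions of timing genes did not hold it, and 22 of the 2294 optimal regions (0.959%) did. The 22 include the 3 lin-14 regions, and its presence there was fixed by how it was chosen. At +6586 and at +7875 a copy began exactly at the summit position. For 9 of the 11 regions the deposited summit is the midpoint of the region, as for 1960 of all optimal regions (85.4%). There a summit and a region's centre cannot be told apart, and the precision of distances to a summit is not given. GC content of these windows had a median of 53.5% at the timing genes, with a range of 46.5% to 74.3%. Over all optimal regions the median was 46.5%, and the 10th and 90th percentiles were 34.7% and 57.4%. The lin-42 region at +14292 had the 74.3%.

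**Figure D1:**
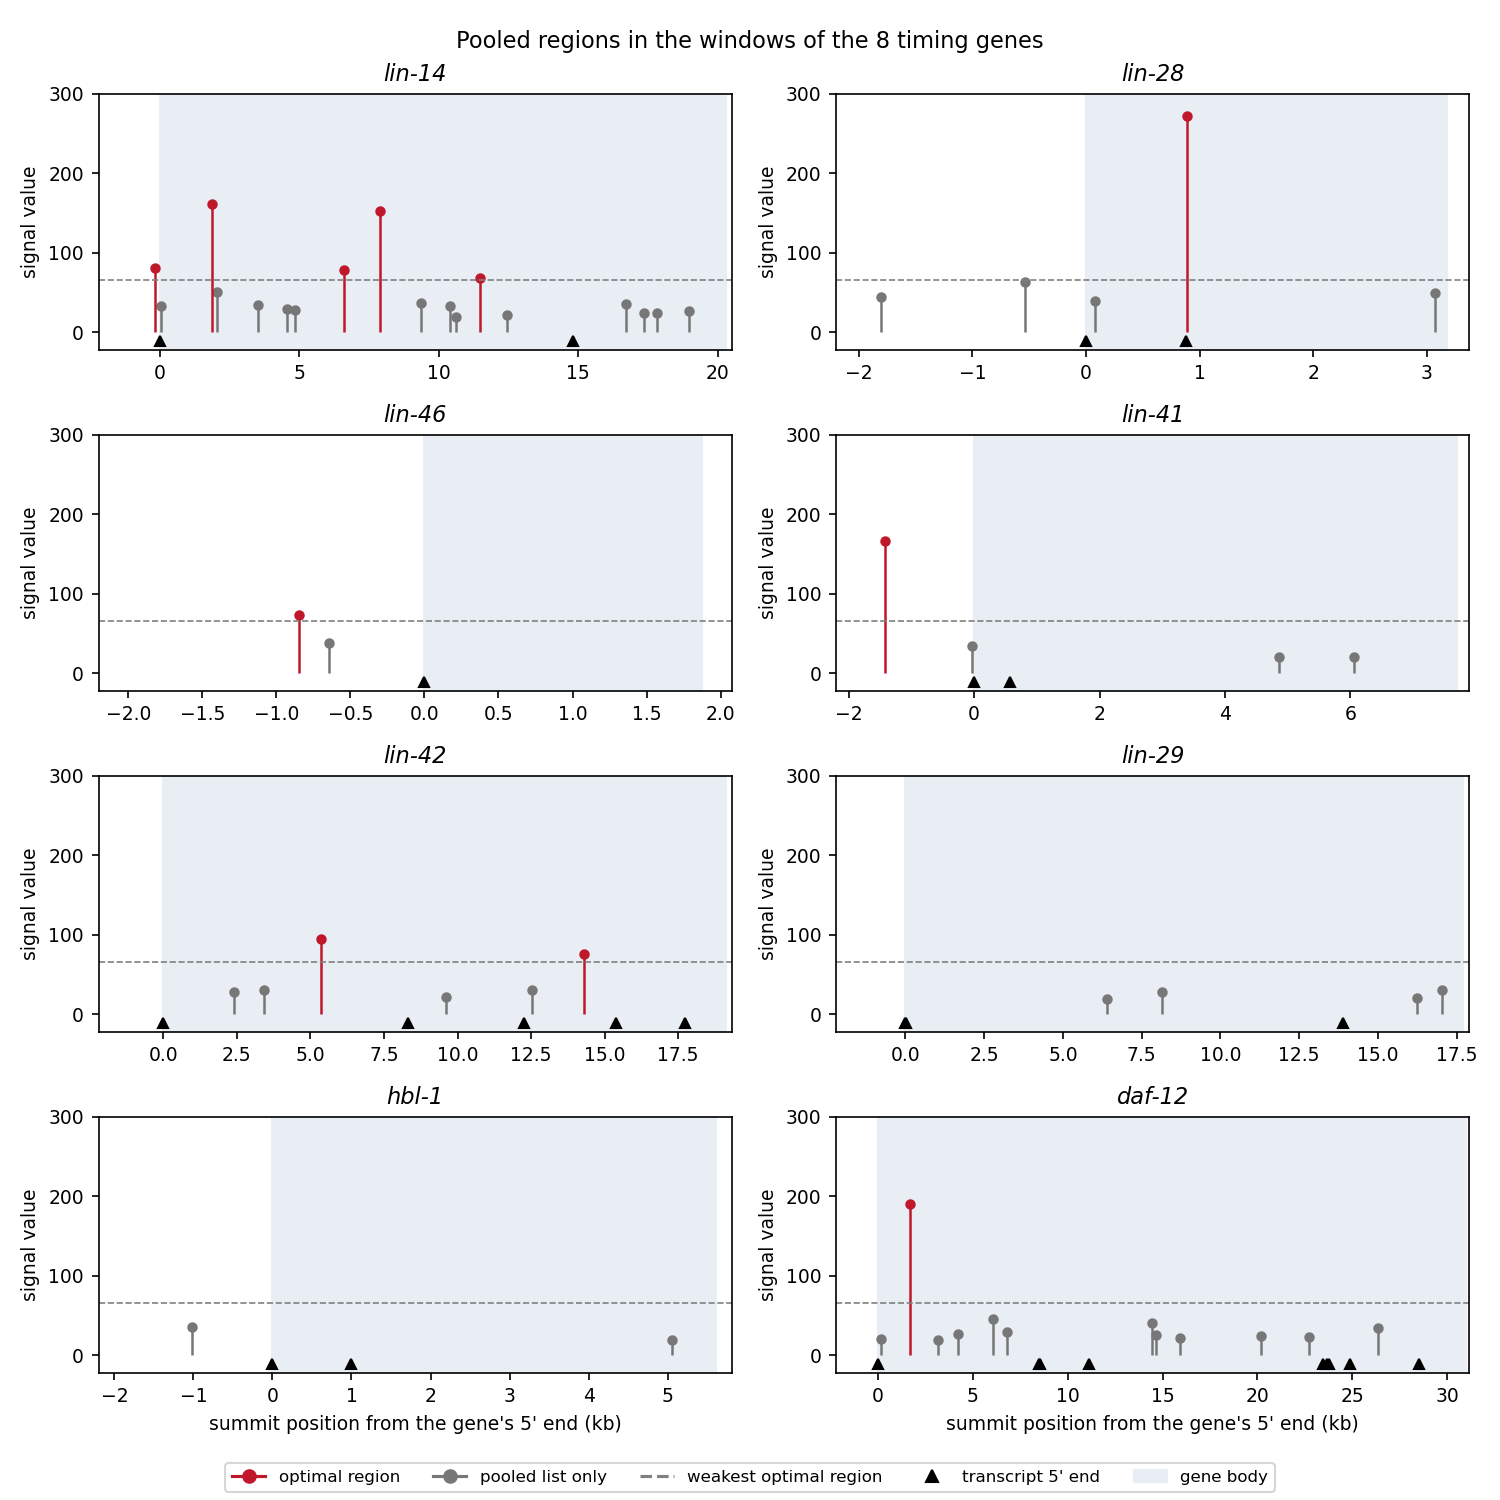
Pooled EGL-13 regions in the windows of the 8 timing genes. The x axis is the position of the summit from the 5′ end of the gene (kb) and the y axis the signal value given by the authors' peak caller; stems in red are optimal regions, grey stems are regions of the pooled list alone, shading is the gene body, triangles are transcript 5′ ends and the dashed line is the weakest optimal region (65.3). Stems of lin-14, lin-28, lin-46, lin-41, lin-42 and daf-12 pass the line, and none of lin-29 or hbl-1 does.

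Each region carries a signal value that the authors' caller assigned. Its scale is not given, so it serves to rank regions within 1 list and does not compare the replicates with each other. The pooled list, made from the reads of both replicates, and each replicate's own list hold 30000 regions that include background, and all 2294 optimal regions are also in the pooled list. Optimal signal values ran from 65.3 to 975 with a median of 102. The 11 regions of the timing genes ran from 68.1 to 271, with pooled ranks from 192 to 2169 and a median of 1296. Each had the same rank in the optimal list as in the pooled list. Down to rank 2169 the optimal list thus held the strongest pooled regions, and being in it does not show that a region was alike in both replicates. Of the 11, 5 were among the stronger 50% of the optimal list. A replicate was counted as having a region where its summit lay within 100 bp of the pooled one. The depth of the libraries is unknown from the files used here, so agreement between the replicates is the measure of error given with each region.

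LIN-14, a nuclear protein that specifies the first larval stage and is the classic target of the lin-4 microRNA, had the most regions. The gene lin-14 (WBGene00003003, X:11465560-11485871, + strand) spans 20312 bp and has 2 annotated transcripts. The 5 optimal summits covered 11648 bp, with gaps of 2013, 4738, 1289 and 3608 bp from the first to the last. Of all protein-coding genes, 11 (0.0551%) had 5 or more optimal regions in the window. The most were 8, at ppfr-1 and vhp-1, and another of the 11 was daf-16. These genes were 8565 to 87197 bp long, so lin-14 was not the longest of them. All but C17E4.6 of these 11 were of 10000 bp or more, and only 998 protein-coding genes were that long. The share among long genes is thus higher than 0.0551%.

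The region nearest the lin-14 5′ end, X:11465203-11465586, lay 165 bp upstream of the longer transcript. Its signal value was 80.1, with rank 1693 in the pooled list, 3360 in replicate 3 and 967 in replicate 4. The replicates thus placed it differently, and replicate 3 had it outside its strongest 2294 regions. In the first intron, X:11467216-11467599 lay at +1848 with a signal value of 161, and it ranked 533 in the pooled list, 562 in replicate 3 and 555 in replicate 4. This was the strongest lin-14 region, and both replicates placed it almost alike. Another intronic region, X:11471954-11472337 at +6586, had a signal value of 77.8 and ranked 1757 in the pooled list, 1787 in replicate 3 and 2288 in replicate 4.

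The region X:11473243-11473626 lay at +7875, which is 6926 bp upstream of the shorter lin-14 transcript, T25C12.1b.1. Its signal value was 152, close to the strongest region of the gene, with rank 587 in the pooled list, 748 in replicate 3 and 583 in replicate 4. The last one, X:11476851-11477234, lay at +11483, or 3318 bp upstream of that transcript, with a signal value of 68.1 and rank 2169 in the pooled list, 1855 in replicate 3 and 3102 in replicate 4. It was the weakest optimal region of any timing gene and outside the strongest 2294 regions of replicate 4. All regions from +1848 to +11483 were in introns of the longer transcript, T25C12.1a.1, and upstream of the shorter one. Annotated 5′ ends in C. elegans are often trans-splice sites, so true starts can lie further upstream.

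**Figure D2:**
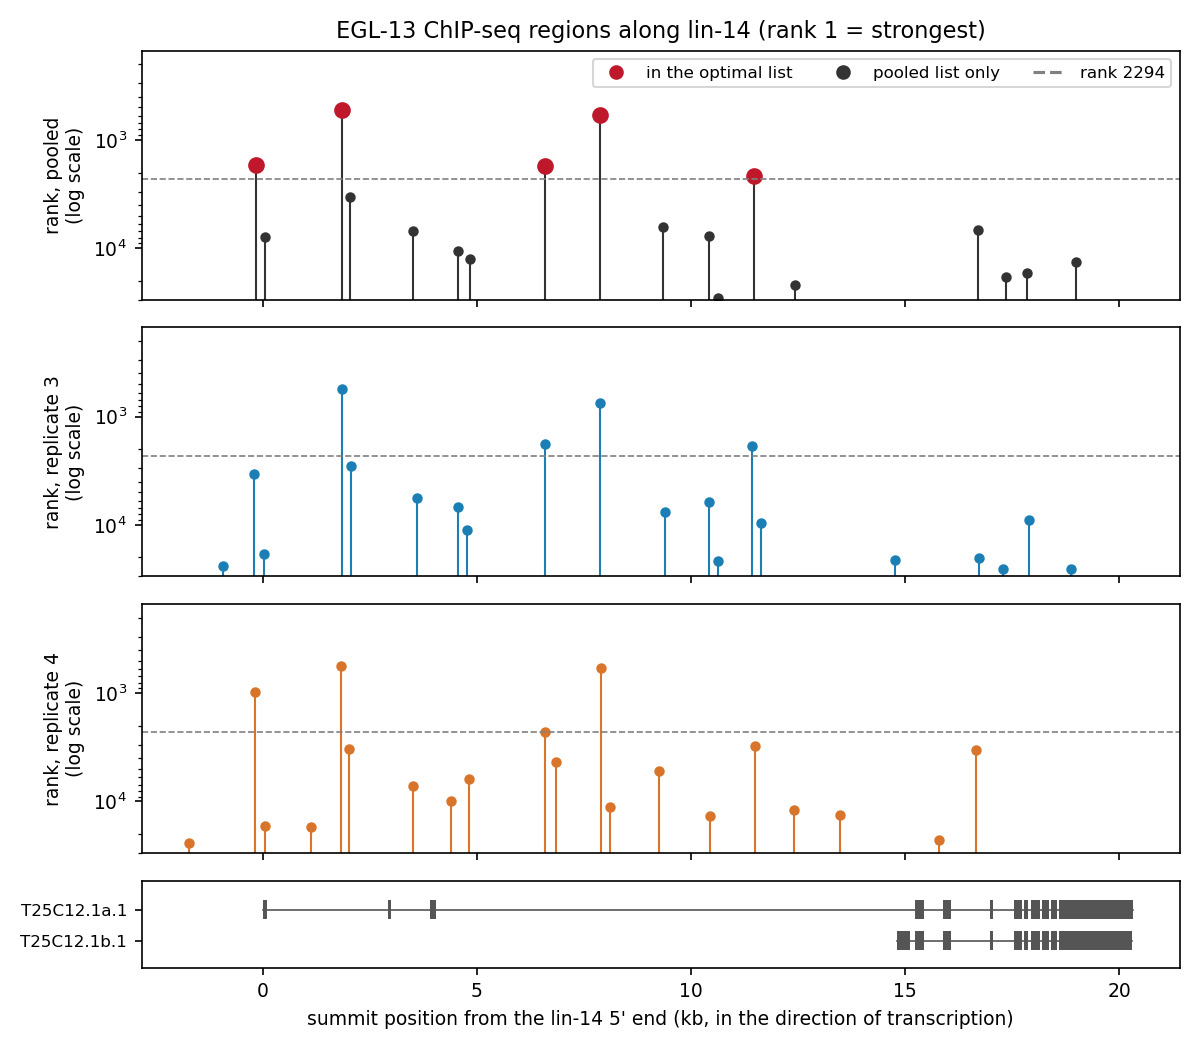
EGL-13 regions along lin-14 in the pooled list and in replicates 3 and 4. The x axis is the summit position from the lin-14 5′ end (kb) and the y axis the rank within each list on a log scale, strongest at the top; red points are optimal regions, the dashed line marks rank 2294, and the exons of both transcripts are drawn at the bottom. The regions at +1848 and +7875 bp are the strongest in every list, with pooled ranks of 533 and 587.

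The lin-14 window also held weaker regions. The pooled list held 18 regions in it, the 5 optimal ones included, and each replicate list 20. That is 0.807 pooled regions per kb of window, against 0.299 over the genome, intergenic bases included. Optimal regions came to 2.24 per 10 kb, against 0.229 over the genome. lin-46, with 1 optimal region in a shorter window, had 2.58 per 10 kb, and lin-28 had 1.93. Neighbouring regions of the pooled list can overlap each other, so they are not all separate places. Of the 13 regions outside the optimal list, 6 had a summit of both replicates, 6 of 1 replicate and 1 of neither, and their signal values ran from 19.3 to 50.9. The strongest of these, at +2047 with pooled rank 3388, overlapped the region at +1848 and ranked 2869 in replicate 3 and 3310 in replicate 4. Regions at +45, on the 5′ end itself, and at +16700, among the exons shared by both transcripts, ranked 7852 and 6819. Short noncoding RNA genes lay close to 3 of the optimal regions. T25C12.8 and T25C12.9 were 90 and 64 bp from the summit at −165, T25C12.7 overlapped the summit at +1848, and T25C12.6 was 133 bp from the summit at +7875. Other noncoding 5′ ends within 1000 bp were that of T25C12.10, 732 bp from the summit at −165, and that of T25C12.5, 967 bp from the summit at +11483. What these RNAs contribute was not tested.

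LIN-28, an RNA-binding protein that blocks the maturation of the let-7 microRNA, had the strongest region of the timing genes. The gene lin-28 (WBGene00003014) lies at I:8407630-8410804 on the − strand. Its optimal region, I:8409834-8410016, had a signal value of 271 and ranked 192 in the pooled list, 247 in replicate 3 and 116 in replicate 4. At 183 bp it was narrower than the 384 bp that 84.3% of optimal regions share. In the lists of replicates 3 and 4 it was 390 and 350 bp wide. The summit lay 885 bp downstream of the 5′ end of the longer transcript, F02E9.2a.1, in an intron. It also lay at 1 bp in the 5′ UTR of the shorter transcript, F02E9.2b.1, so the region sits on the start of one transcript and inside the other. The window held 4 more pooled regions, and all of them had a summit of both replicates. The strongest, 535 bp upstream of the longer transcript, had a signal value of 63.7, just under the weakest optimal region (65.3), with rank 2378 in the pooled list, 3135 in replicate 3 and 1381 in replicate 4. The others lay at −1807, +77 and +3075 with ranks 4267, 5226 and 3631. lin-28 had 0.966 pooled regions per kb, the highest value of the 8 genes.

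HBL-1, a zinc-finger protein related to Drosophila Hunchback that controls fates of the larval stages that follow the first, had no optimal region. The gene hbl-1 (WBGene00001824, X:5822142-5827755, + strand) had 2 pooled regions. The stronger lay 1024 bp upstream with a signal value of 35.7 and rank 6572. Replicate 3 had a summit 6 bp away at rank 7081, and the nearest summit of replicate 4 was 167 bp away at rank 9883, so both replicates had a region nearby but not at the same point. The other lay at +5058 with rank 28503 and no summit of either replicate within 100 bp. The nearest optimal summit was 7944 bp beyond the upstream edge of the window, where F13D11.3 was the gene with the nearest 5′ end.

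LIN-46, a gephyrin-related protein that acts downstream of LIN-28 and limits HBL-1 activity, had a region that the replicates ranked unlike each other. The gene lin-46 (WBGene00003031, V:12968855-12970730, + strand) is the shortest of the 8 at 1876 bp. Its optimal region, V:12967816-12968199, lay 847 bp upstream with a signal value of 73.1 and ranked 1932 in the pooled list, 1536 in replicate 3 and 5430 in replicate 4. Replicate 3 had it among its strongest 2294 regions and replicate 4 did not. The summit lay 26 bp from the 5′ end of another protein-coding gene, R186.8, and 798 bp from that of R186.3, so the region cannot be assigned to lin-46 by position. A weaker pooled region at −647, which overlapped it, ranked 5555 and had a summit of replicate 3 but none of replicate 4 within 100 bp.

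LIN-41, a TRIM-NHL RNA-binding protein repressed by let-7 that keeps lin-29 off in larval skin, had a strong region upstream. The gene lin-41 (WBGene00003026) lies at I:9334800-9342496 on the − strand and has 4 annotated transcripts. The optimal region, I:9343731-9344114, had a signal value of 167 and ranked 504 in the pooled list, 377 in replicate 3 and 790 in replicate 4. Its summit lay 1427 bp upstream of the outer 5′ end, which 2 transcripts share, and 2004 bp upstream of the inner one, and no other gene had a 5′ end within 1000 bp. The replicate 4 summit was 62 bp from the pooled one, the longest such distance among the 11 regions. Of 3 weaker pooled regions, the one at −36, next to the outer 5′ end, ranked 7192 with summits of both replicates, at ranks 16724 and 13732 in replicates 3 and 4. The other 2, inside the gene at +4869 and +6054, ranked 26015 and 25608.

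LIN-29, the zinc-finger transcription factor that triggers the larval-to-adult switch, had the lowest best signal value of the 8 genes in the pooled list. The gene lin-29 (WBGene00003015, II:11917642-11935343, − strand) spans 17702 bp and had no optimal region. Its 4 pooled regions had signal values from 19.4 to 31.0 and ranks from 9185 to 28750. The strongest, II:11918104-11918487, lay 17047 bp downstream of the 5′ end in the 3′ UTR, with summits of both replicates at ranks 10819 and 18455 in replicates 3 and 4. No pooled region lay upstream of the gene within the window, and the nearest optimal summit was 23544 bp beyond its upstream edge, nearest to W03C9.1. Replicate 3 alone had a region upstream of lin-29 in the window, 1137 bp from the 5′ end at rank 18598. The best-ranked region of replicate 4, at +9322 with rank 9599, had no pooled summit within 100 bp. lin-29 had 0.203 pooled regions per kb, against 0.299 over the genome.

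LIN-42, the period-related protein whose level cycles with the molts, had 2 optimal regions, both inside the gene. The gene lin-42 (WBGene00018572, II:1233236-1252359, − strand) has 7 annotated transcripts with starts spread along it. The region II:1246825-1247208 had a signal value of 95.1 and ranked 1296 in the pooled list, 1299 in replicate 3 and 1487 in replicate 4. Both replicates had their summit at exactly the pooled position. It lay at +5342 in an intron of the outermost-starting transcripts, F47F6.1d.1 and F47F6.1f.1, and 2982 bp upstream of F47F6.1b.1 and F47F6.1c.1, and it overlapped the noncoding RNA genes F47F6.13 and F47F6.15. The other region, II:1237875-1238258, had a signal value of 75.7 and ranked 1835 in the pooled list, 2208 in replicate 3 and 2150 in replicate 4. It lay at +14292 in introns of F47F6.1d.1, F47F6.1b.1 and F47F6.1e.1 and 1098 bp upstream of F47F6.1a.1. Each optimal region of lin-42 was thus upstream of one or more inner transcript starts. Of 4 weaker pooled regions, with signal values from 21.4 to 30.1, 1 had a summit of both replicates and 3 of 1 replicate.

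DAF-12, the nuclear receptor for the steroid hormones called dafachronic acids, had a strong region near its outermost start. The gene daf-12 (WBGene00000908, X:10635908-10666875, + strand) is the longest of the 8 at 30968 bp and has 10 annotated transcripts. The optimal region, X:10637597-10637692, was 96 bp wide with a signal value of 190.4, and it ranked 407 in the pooled list, 438 in replicate 3 and 482 in replicate 4. Both replicates placed it alike. The lists of replicates 3 and 4 gave it widths of 390 and 350 bp, as for all their regions at the 8 genes. The summit lay 1713 bp into the first-starting transcript, F11A1.3e.3, in an intron, and upstream of the 9 others by 6788 to 26785 bp. Of 11 weaker pooled regions in the window, 2 had a summit of both replicates, 8 of 1 replicate and 1 of neither. The strongest, at +6063 with a signal value of 45.4 and rank 4075, lay 2438 bp upstream of F11A1.3e.1. Replicate 4 had 17 regions in the window and replicate 3 had 9.

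**Figure D3:**
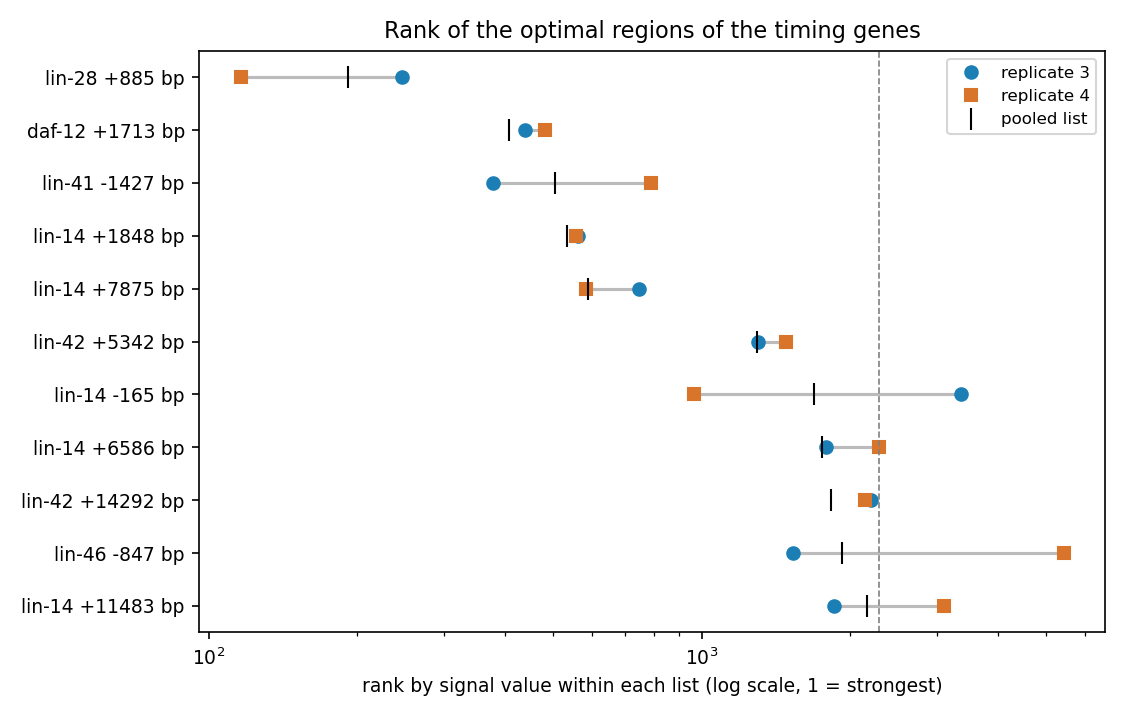
Ranks of the 11 optimal regions of the timing genes. The x axis is the rank by signal value within each list on a log scale (1 is the strongest), circles are replicate 3, squares are replicate 4, ticks are the pooled list, rows are regions named by gene and distance from its 5′ end, and the dashed line marks rank 2294. Circles and squares lie close for lin-14 +1848 bp, with ranks 562 and 555, and farthest apart for lin-46, with ranks 1536 and 5430.

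Across the 11 optimal regions, the replicate 3 summit was a median of 4 bp and at most 47 bp from the pooled summit, and the replicate 4 summit a median of 21 bp and at most 62 bp. In both replicates, 8 of the 11 ranked in the first 2294, against 64.8% of all optimal regions. The exceptions were lin-14 at −165, which replicate 3 ranked lower, and lin-14 at +11483 and lin-46, which replicate 4 ranked lower. The better rank was in replicate 3 for 6 regions and in replicate 4 for 5. By gene, 5 of the 8 had a region among the strongest of both replicates (lin-14, lin-28, lin-41, lin-42 and daf-12), against 8.43% of all protein-coding genes. Of these, lin-14, lin-42 and daf-12 are of 10000 bp or more, and this share was not computed by gene length. A pooled region of any strength lay in the window of all 8 genes and of 68.6% of all protein-coding genes, so its presence says little about a gene. In the 8 windows there were 53 pooled regions, 51 of replicate 3 and 61 of replicate 4. Of the 42 pooled regions outside the optimal list, 15 had a summit of both replicates, 22 of 1 replicate and 5 of neither. The share over all 30000 pooled regions was not computed. These counts, and those given by gene, thus do not show whether such support was more or less than usual.

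In position, 7 of the 11 optimal summits lay in introns and in no exon of a protein-coding gene, against 23.7% of all optimal summits. The window rule takes in whole gene bodies, and these genes are long, so this share is not independent of how the regions were chosen. The 7 were those at lin-14 from +1848 to +11483, both at lin-42 and that of daf-12. The summit at lin-28 was exonic, and the other 3 lay outside protein-coding genes. A noncoding RNA gene lay within 200 bp of 4 of the 11 summits, against 368 of all 2294 (16%). None of the 11 lay within 200 bp of a tRNA, snoRNA or snRNA gene, as 7.02% of all optimal summits did.

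Other genes of the timing pathway were examined by role, from a list drawn up with earlier results of these data known. Of 33 such genes, 12 had an optimal region. Among the 27 protein-coding ones it was 11, against 12% of all protein-coding genes. A region among the strongest of both replicates was found at 8 of these 27, against 8.43% of all, and a pooled region at all 27, against 68.6% of all. Neither the 8.43% nor the 68.6% was computed by gene length. The 6 noncoding genes have no such share beside them: 1 had an optimal region. Of 5 microRNA genes, let-7, the repressor of lin-41, had an optimal region. It lay 1844 bp upstream of the outermost annotated 5′ end of the let-7 primary transcript and had a signal value of 157 and rank 562 in the pooled list, 786 in replicate 3 and 414 in replicate 4. Its summit was 138 bp from the 5′ end of the protein-coding gene C05G5.2. lin-4, mir-48, mir-84 and mir-241 had none, and their best pooled ranks were 7672, 28258, 15559 and 4689.

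Genes of the microRNA machinery had optimal regions in 6 of 10 cases, against 12% of all protein-coding genes. The share was 28.4% for genes of 10000 bp or more, among which is xrn-2 with 10263 bp. The regions of nhl-2, xrn-2 and ain-2 lay nearer to the 5′ end of another gene, so 3 of the 6 cannot be assigned by position. Those of nhl-2 and puf-9 were stronger than the strongest region of a timing gene. The region of nhl-2, which encodes a TRIM-NHL cofactor of microRNA repression, had a signal value of 691 and ranked 8 in the pooled list, 9 in replicate 3 and 8 in replicate 4. It lay 829 bp upstream of nhl-2 and 594 bp from the 5′ end of tag-340, and it overlapped the noncoding RNA gene F26F4.14. The region of puf-9, which encodes a Pumilio-family RNA-binding protein, had a signal value of 519 and rank 33 and lay 270 bp upstream, overlapping the noncoding RNA genes W06B11.7 and W06B11.9. ain-1, for a GW182-related protein of the silencing complex, had a signal value of 269 at rank 196, which lay 883 bp upstream. The region of xrn-2, for an exonuclease that degrades microRNAs, had a signal value of 222 at rank 295. Its summit was 178 bp from Y48B6A.1 and 743 bp from rpl-43, and 1217 bp upstream of xrn-2. rbm-28 had a signal value of 82.9 and ain-2 one of 69.6, and replicate 4 ranked both below its strongest 2294 regions (4225 and 5738). The 5′ ends of B0041.5 and B0041.12, 857 and 871 bp from the ain-2 summit, were closer to it than that of ain-2. alg-1, alg-2, dcr-1 and pup-2 had no optimal region.

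Among partners of LIN-42 and of the molting cycle, 2 of 7 had one, against 12% of all protein-coding genes. kin-20, for a casein kinase related to the Drosophila clock kinase Doubletime, had 2 regions in an intron of its outermost transcript, with signal values of 65.7 and 85.7. Replicate 4 ranked them 3265 and 3351, outside its strongest 2294, and the noncoding RNA genes F46F2.9 and F46F2.12 were 76 and 21 bp from their summits. myrf-1, for a membrane-bound transcription factor needed for molting, had a region 331 bp upstream with a signal value of 199 and ranks of 367, 419 and 435 in the pooled list, replicate 3 and replicate 4. The noncoding RNA gene F59B10.7 overlapped it.

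In the DAF-12 hormone pathway, 2 of 5 genes had an optimal region, against 12% of all protein-coding genes and 28.4% of those of 10000 bp or more, among which is din-1 with 18840 bp. daf-9, for the cytochrome P450 that makes the hormone, had a signal value of 71.8 at rank 1994, with the summit 1607 bp upstream and nearer to the 5′ end of ceh-54 at 1079 bp. din-1, for a corepressor of DAF-12, had 2 regions at −1536 and −752 with signal values of 122 and 149.7. A snoRNA gene, ZK20.9, was 80 bp from the outer one, and the noncoding RNA gene ZK20.8 was 27 bp from the inner one. Late effectors and other timing genes numbered 6, of which lep-5 is noncoding and has no such share beside it. Of the 6, 1 had an optimal region, against 12% of all protein-coding genes. This was lin-66, which acts on lin-28, with a region 426 bp upstream, a signal value of 165 and ranks of 518, 823 and 330 in the pooled list, replicate 3 and replicate 4. The piRNA genes 21ur-3387 and 21ur-5027 had 5′ ends 768 and 870 bp from it.

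**Figure D4:**
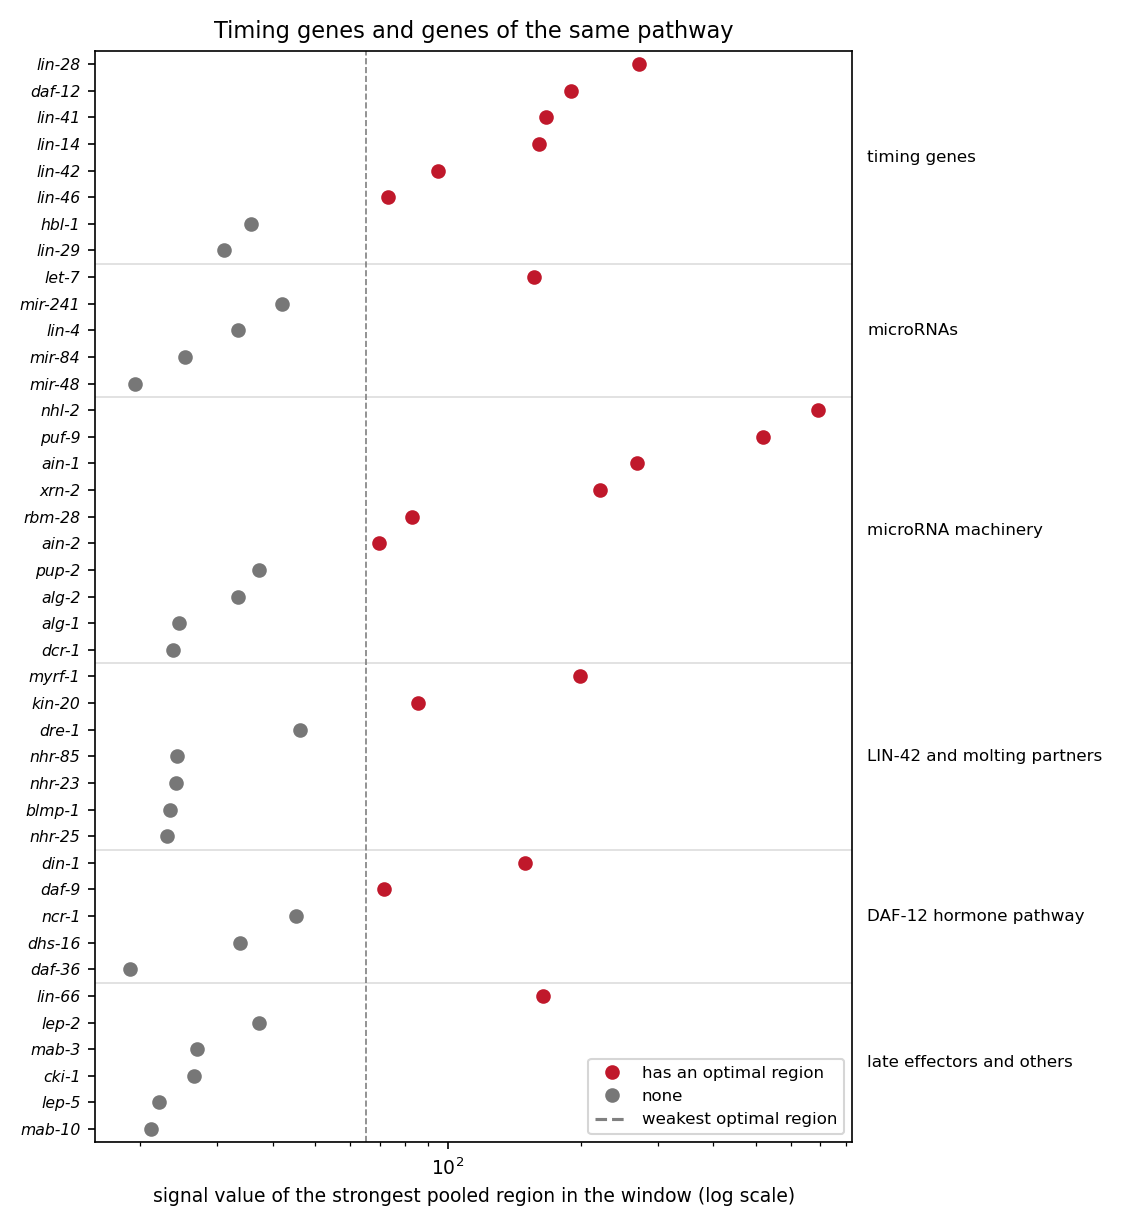
Signal value of the strongest pooled region in the window of each timing gene and of 33 further pathway genes by role. The x axis is the signal value on a log scale, points in red are genes with an optimal region, grey points are genes without one, and the dashed line is the weakest optimal region (65.3). Points of 6 of the 8 timing genes lie right of the line, with lin-28 at 271, and nhl-2 at 691 lies farthest right of all genes drawn.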

How the data were processed

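Regions came from the lists in narrowPeak format that the authors deposited on ce11: 1 per replicate and 1 of both replicates pooled (30000 regions each, background included, made as input to IDR, which scores how well ranked lists reproduce each other) and 1 optimal list that passed an IDR threshold. The authors called regions per replicate and on pooled reads, with a control alignment, as the descriptions deposited with the files state. Not given in the sources used here are the IDR threshold, the caller and the aligner. Deposited values were a signal value, used here for ranks, a −log10 q value, not used for any result, and the offset of the summit. Lists on ce10 and the signal tracks were not used here. Labels name the libraries as biological replicates. The files used hold no read counts, so intervals could not be given.

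Chromosome names and lengths matched WBcel235, which is ce11. Genes and transcripts came from Ensembl release 115, and bases and microRNA names from RefSeq. A summit was in a window from 2000 bp upstream of the outermost 5′ end to the end of the gene. A replicate had a region where its nearest summit was within 100 bp, and its strongest regions were the first 2294 of its list. The search for motifs took both strands, up to 50 bp to each side of a summit. Where a region lay within windows of several genes it counted for each. Named were the 8 genes, every further pathway gene with an optimal region, and genes with a 5′ end within 1000 bp of a named summit; others that are named were chosen after their values were seen. Sequences shown are from optimal regions outside UTRs, of timing genes that are not on chromosome I. The genes, lists and motifs were chosen with earlier results of these data known. Alternatives covered the window, the summit distance, the number of strong regions, the motif distance and each replicate alone. Counting was tested on simulated summits. Python 3.11.15, NumPy 2.4.6, pandas 2.3.3 and matplotlib 3.10.9 were used.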

Additional observations from a re-analysis of the deposited data

How the results depend on the processing

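GACGCA lay within 25 bp of the summit at 2 of the 11 optimal regions, against 9.42% of all optimal regions, within 50 bp at 4, against 15.3%, and within 100 bp at 5, against 21.6%. The shorter distance searches fewer bases. The number of timing genes with a region among the strongest 2294 was 5 in replicate 4 alone and 6 in replicate 3 alone, against 6 in the optimal list. It was 5 with a window starting 1000 bp upstream, 4 in the stronger 50% of the optimal list, and 5 when a region went to the nearest protein-coding 5′ end, an alternative chosen after seeing the data. The share of all protein-coding genes was not computed under these settings or in each replicate alone, so these counts have no background beside them. Pooled regions with a summit of both replicates numbered 18 within 50 bp, 33 within 200 bp and 37 by any overlap, against 26 within 100 bp. They too have no share of all pooled regions beside them. Depth is unknown, so a missing region at lin-29 or hbl-1 does not show that EGL-13 was absent there.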
